A study of Homo sapiens with 3 samples.

Results

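The genes described here code for the proteins that display peptides from inside the cell on MHC class I molecules. They are 4 class I heavy chain genes (HLA-B, HLA-C, HLA-E and HLA-F), the shared light chain gene B2M, the peptide transporter genes TAP1 and TAP2, the tapasin gene TAPBP and the transactivator gene NLRC5. The 9 genes were taken by name, 1 entry each, from a table of 26485 entries, by a rule that uses no measured value. Their RNA was measured in CAMA1, an established human breast cancer line described as positive for the estrogen receptor and amplified for FGFR1. Poly-A RNA came from cells held for 48 h in medium without estradiol, and the 3 libraries, described as biological replicates, form 1 group with no treated group. Replicate 1 held 26473939 counts, replicate 2 26592335 and replicate 3 30745412. The questions open to this design were how high each class I gene stood, how the genes stood to one another, and how far the libraries differed. Tests between libraries therefore measure the spread of these 3 samples, and each level is given with its SD (n = 3).

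In class I presentation, proteasomes cut cytosolic proteins into peptides, which TAP1 and TAP2, joined as a pair, carry into the endoplasmic reticulum. Tapasin bridges this transporter to a heavy chain bound to beta-2-microglobulin, the B2M product, and the loaded complex moves to the cell surface, where cytotoxic T cells and natural killer cells read it. NLRC5 is the transactivator of class I genes and acts at their promoters together with RFX, CREB/ATF and NF-Y proteins. Interferon raises most of these genes, and tumour cells often lower them.

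The promoters of HLA-B, HLA-C and HLA-F are shown because these related heavy chain genes include the pair HLA-B and HLA-C, close in level, and HLA-F, far lower. Whether differences in promoter letters bear on these levels was not tested. Each stretch covers 250 to 51 bases before the start given by RefSeq (build GRCh38.p14), on the strand of the gene, at chr6:31357230-31357429 (minus) for HLA-B, chr6:31272143-31272342 (minus) for HLA-C and chr6:29723184-29723383 (plus) for HLA-F. Capitals mark matches, on either strand, to the interferon response core (GAAA, any 2 bases, GAAA), kappa B-like letters (GGGA, any 4 bases, CC), the X2-like letters TGACGC, and CCAAT. The 2 kappa B-like matches of HLA-B overlap each other, and the first of HLA-C overlaps a CCAAT match.
HLA-B: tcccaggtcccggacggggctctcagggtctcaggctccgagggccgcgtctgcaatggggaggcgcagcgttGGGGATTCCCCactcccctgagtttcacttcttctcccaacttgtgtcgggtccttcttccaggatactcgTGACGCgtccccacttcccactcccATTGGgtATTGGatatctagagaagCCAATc
HLA-C: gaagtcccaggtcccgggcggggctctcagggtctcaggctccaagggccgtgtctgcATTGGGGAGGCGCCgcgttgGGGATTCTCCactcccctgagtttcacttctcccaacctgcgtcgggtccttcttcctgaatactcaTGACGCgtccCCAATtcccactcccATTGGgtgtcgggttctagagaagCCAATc
HLA-F: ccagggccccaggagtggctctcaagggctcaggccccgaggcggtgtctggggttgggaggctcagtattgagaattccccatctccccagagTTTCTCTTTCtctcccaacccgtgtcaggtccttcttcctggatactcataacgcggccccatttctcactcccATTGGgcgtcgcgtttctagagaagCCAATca

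Aligned over the full 250 bases before each start, the HLA-B and HLA-C promoters were 89.0% identical, HLA-B and HLA-F 79.8%, and HLA-C and HLA-F 78.2%. The letters TGACGC occurred once in HLA-B and once in HLA-C and had no match in HLA-F. The interferon core matched once in HLA-F and had no match in HLA-B or HLA-C, while CCAAT matched 3, 4 and 2 times in HLA-B, HLA-C and HLA-F. Of 35116 promoters of the same length, 3.02% held the interferon core, 22.6% the kappa B-like letters, 7.67% TGACGC and 32.0% CCAAT. The B2M promoter (chr15:44711341-44711420, plus, 176 to 97 bases before its start) is shown for its pair of interferon cores, which overlap each other and lie beside kappa B-like letters.
B2M: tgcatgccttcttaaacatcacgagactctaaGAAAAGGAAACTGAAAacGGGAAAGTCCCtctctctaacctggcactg

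RefSeq promoters were matched for 7 of the 9 genes, all but HLA-E and NLRC5. There were 2 matches each to the interferon core in TAP1 (at the more upstream of its 2 listed starts), TAPBP and B2M, and 1 in TAP2. In TAP1 and TAPBP, as in B2M, the 2 matches overlap each other. A match is a description of letters and not evidence that a protein binds there. Likewise, no match means only that these exact letters were absent, and a site that departs from them would be missed. The first exons in the deposited table began 33, 44, 94 and 30 bases upstream of the RefSeq starts of HLA-B, HLA-C, HLA-F and B2M. For TAP2, TAP1 (more upstream start) and TAPBP they began 84, 267 and 309 bases upstream. The interferon core matches of TAP2, TAP1 and TAPBP thus lie upstream of the RefSeq starts but downstream of where the deposited exons begin.

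The class I machinery was expressed in CAMA1 cells, with B2M highest and NLRC5 lowest. All 9 genes had at least 10 counts in each library, the minimum used here for a detected gene, which 54.9% of all entries met. Levels are TPM, counts divided by exon length on the main chromosome and scaled to the same total in each library. The median over the 9 genes was 140 TPM, against 8.16 TPM over 18985 protein-coding genes, and 7 of the 9 lay above that median. Over the 12786 protein-coding genes that were detected the median was 25.9 TPM, with TAP2 (23.4 TPM), HLA-F and NLRC5 below it. In bulk RNA, fewer cells of a type and less RNA per cell cannot be told apart.

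**Figure D1:**
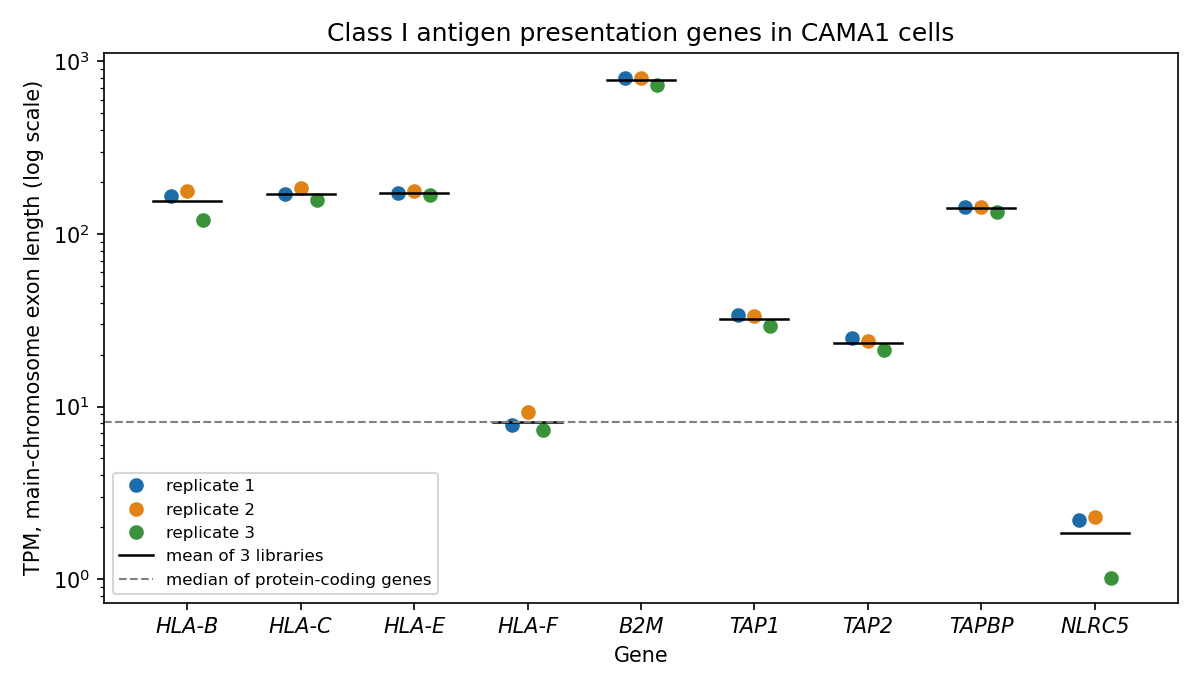
TPM (log scale) of the 9 class I antigen presentation genes in 3 CAMA1 libraries; points are libraries, the black line is their mean, and the dashed line is the median of protein-coding genes (8.16 TPM). B2M stands highest at 776 TPM, HLA-B, HLA-C, HLA-E and TAPBP lie between 140 and 173 TPM, and NLRC5 lies lowest at 1.84 TPM with replicate 3 below the others.

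HLA-E, HLA-C and HLA-B were close to one another among the heavy chain genes, and HLA-F was far lower. HLA-E, whose product presents signal peptides of other class I chains to natural killer cells, had 174, 176 and 169 TPM in replicates 1, 2 and 3. HLA-C, a classical heavy chain that is also a ligand of natural killer receptors, had 170, 185 and 156 TPM. HLA-B, the other classical heavy chain described here, had 166, 178 and 121 TPM. HLA-E, HLA-C and HLA-B were each lowest in replicate 3 by TPM, although HLA-E was nearly level over the libraries. HLA-F, a nonclassical chain found largely inside the cell, had 7.80, 9.24 and 7.30 TPM, so its libraries stayed below every library of the other heavy chains.

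Within each library, the log2 ratio of HLA-E over HLA-F was 4.42 ± 0.15 (SD, n = 3), a 21.4-fold difference with the same sign in 3 of 3 libraries. HLA-B over HLA-C was −0.15 ± 0.19, HLA-B over HLA-E −0.18 ± 0.26 and HLA-C over HLA-E −0.02 ± 0.09, each smaller in size than its SD over libraries, so their order is not separable from the spread. With the deposited length HLA-B over HLA-C was 0.06 and HLA-B over HLA-E 0.04, both of the opposite sign. An exact permutation test that flips signs over the libraries (two-sided) gave p = 0.25 for HLA-B over HLA-C and for HLA-E over HLA-F, 0.5 for HLA-B over HLA-E and 0.75 for HLA-C over HLA-E. Of the 8 pairs compared, 6 had p = 0.25, the lowest that 3 samples allow (adjusted permutation p = 0.333 over the 8), so no pair could pass 0.05.

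Taken as a share of the summed TPM of the 4 heavy chain genes, HLA-E held 34.3 ± 2.59%, HLA-C 33.7 ± 0.831%, HLA-B 30.4 ± 3.24% and HLA-F 1.60 ± 0.0898%. B2M, whose product pairs with every one of these chains, had 800, 799 and 727 TPM, which placed it at rank 132 of the protein-coding genes. B2M exceeded the summed heavy chains 1.54 ± 0.0739-fold, at 1.55, 1.46 and 1.61 in replicates 1, 2 and 3. Over HLA-B alone its log2 ratio was 2.34 ± 0.22, and 3.93 with the deposited length. Per length, light chain RNA was thus above the sum of these 4 heavy chains in each of the 3 libraries. That direction rests on dividing by length: by counts alone the ratio was 0.777 ± 0.0273, below 1 in each library, and with the deposited length it was 5.11 ± 0.268; other heavy chain genes are not in this sum.

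The peptide transporter genes stood well below HLA-B, HLA-C, HLA-E and tapasin, and above HLA-F. TAP1 had 34.1, 33.5 and 29.3 TPM and TAP2 24.9, 24.1 and 21.2 TPM, and both were lowest in replicate 3. TAP1 over TAP2 was the most even of the 8 ratios, with a log2 value of 0.47 ± 0.01 and the same sign in 3 of 3 libraries, although it rests on dividing by length: by counts alone TAP2 was higher (log2 −0.52). TAPBP had 143, 144 and 134 TPM, and its log2 ratio over TAP1 was 2.12 ± 0.06, or 4.35-fold. With the deposited length that ratio was 2.80. Tapasin RNA was therefore nearer in level to HLA-B, HLA-C and HLA-E than to the transporter genes or HLA-F.

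NLRC5 was the lowest of the 9 genes and the most uneven. It had 2.20, 2.30 and 1.02 TPM in replicates 1, 2 and 3, on 151, 159 and 83 counts. The exact 95% Poisson intervals of those counts, which cover counting error only, were 128 to 177, 135 to 186 and 66.1 to 103, so replicate 3 lay apart from both others. NLRC5 ranked 11383 among protein-coding genes, and 40.04% of them lay below it. TAPBP exceeded NLRC5 by 6.33 ± 0.60 on the log2 scale, and by 4.01 with the deposited length. The transactivator was thus detected at a low level, below the protein-coding median, as HLA-F was by a small margin, while the other 7 genes lay above it.

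Most of these genes lie in the MHC on the short arm of chromosome 6, where hg38 carries alternate contigs, and the deposited lengths add up the exons of all of them. For 8 of the 9 genes the deposited length was over 1.5 times the exon length on the main chromosome, which held for 3.81% of protein-coding genes. TAP1 (32845209 to 32853971) and TAP2 (32821833 to 32838823) were counted on 8 sequences, HLA-C (31268749 to 31272136), HLA-E (30489406 to 30494205) and HLA-F (29723340 to 29727296) on 7, HLA-B (31353872 to 31357212) on 6 and TAPBP (33299695 to 33314387) on 5. B2M (chromosome 15, 44711487 to 44718159) had 1 alternate copy, and NLRC5 (chromosome 16, 57017074 to 57083524) had none. The longer length made the class I genes of chromosome 6 look several times lower.

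With the deposited length HLA-C stood at 25.1 ± 2.07 TPM, HLA-E at 25.4 ± 0.575 TPM and HLA-B at 26.6 ± 5.15 TPM. TAPBP stood at 28.9 ± 1.08 TPM, TAP1 at 4.15 ± 0.329 TPM, TAP2 at 3.04 ± 0.249 TPM and HLA-F at 1.25 ± 0.154 TPM. These values are 4.86 to 7.77 times below those with the main-chromosome length, whereas B2M at 399 ± 21.3 TPM was 1.94 times lower. HLA-F and NLRC5 changed places: NLRC5, at 1.90 ± 0.733 TPM, was then above HLA-F. Under the deposited length 5 of the 9 genes lay above the protein-coding median, in place of 7. How reads that match several contigs were counted was not given in the sources used here, so the level of the chromosome 6 genes is known only to within this choice of length.

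**Figure D2:**
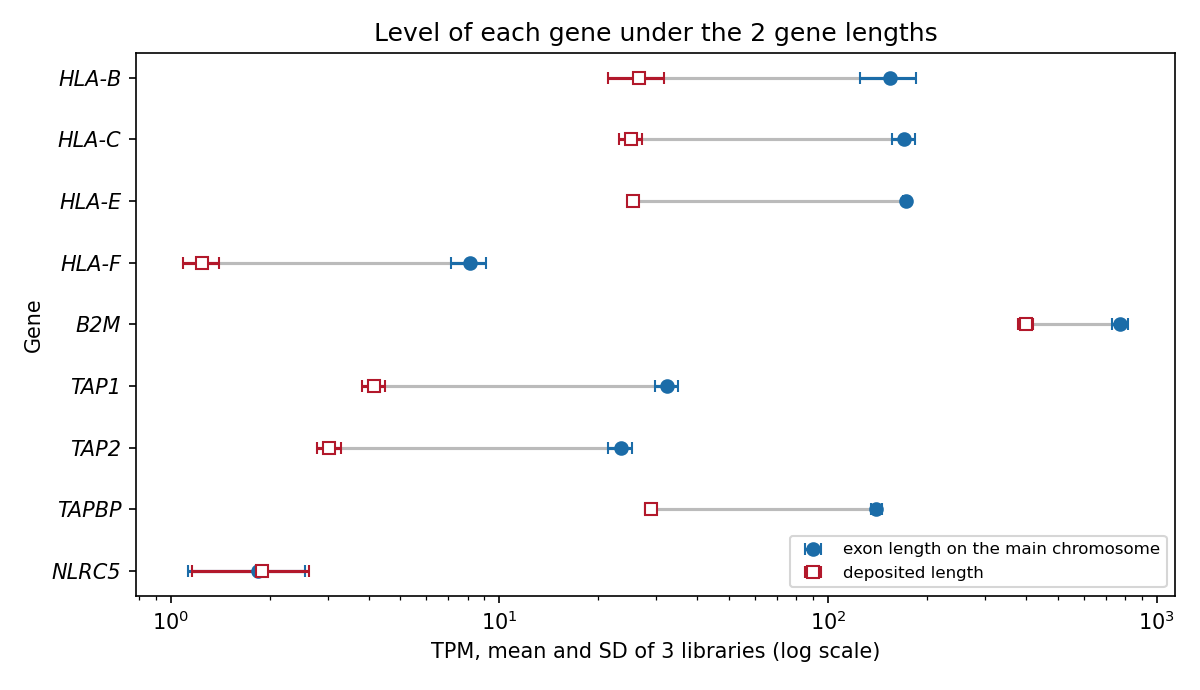
Mean TPM with SD over 3 libraries (log scale) for each gene, with the exon length on the main chromosome (filled circles) and with the deposited length that adds alternate contigs (open squares). The 7 genes of chromosome 6 move 4.86 to 7.77 times, B2M moves 1.94 times, and NLRC5, with no alternate copy, stays nearly in place.

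Reads shared with other genes also bear on these levels. Values were not whole in at least 1 library for 7 of the 9 genes, against 20.8% of the 20586 entries with counts, while B2M and NLRC5 were whole throughout (within 1e-08). In GENCODE 29 transcripts of the main chromosomes, 5.38% of the distinct 50-base stretches of HLA-C, 4.34% of HLA-E, 2.72% of HLA-B and 0.977% of HLA-F also occurred in another gene. The share was 4.17% for TAPBP and 0.880% for TAP1. TAP2 shared 31.3% of its stretches with another annotated gene, and B2M and NLRC5 shared none. No other deposited entry overlapped the exons of TAP2, and how far the 31.3% bears on its counts was not tested. The class I pseudogene HLA-H had 285, 329 and 287 counts (18.4 ± 2.74 TPM), more than HLA-F, and how the counting divided reads between such copies was not given, so the values of the 7 genes of chromosome 6 are uncertain to that extent. TAP1 shares 456 exon bases with PSMB8-AS1 on the opposite strand, an entry with 16, 19 and 9 counts, and HLA-F shares 257 with HLA-F-AS1, at 1.2, 0 and 0 counts; whether strand was used in counting was not given.

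From HLA-F to TAPBP (chromosome 6, 29723340 to 33314387), the table held 138 protein-coding genes, of which 7 are described here. The other 131 had a median of 15.2 TPM, 94 of them were detected, and 129 had a deposited length over 1.5 times the main-chromosome one. By TPM, HLA-E ranked 22, HLA-C 23, HLA-B 24 and TAPBP 26 of the 138, while TAP1 ranked 58, TAP2 65 and HLA-F 81. HLA-E, HLA-C, HLA-B and TAPBP thus ranked close together, with 21 genes of the segment above them.

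The steps before and after peptide transport differed in level. Chaperones of the endoplasmic reticulum that assist class I folding and loading were abundant: calnexin (CANX) stood at 881 ± 104 TPM, PDIA3, which is bound to tapasin in the loading complex, at 675 ± 16.7 TPM, calreticulin (CALR) at 636 ± 6.89 TPM and HSPA5 at 391 ± 53.0 TPM. All 8 genes of this list were detected, with a median of 210 TPM. The peptide-trimming enzymes were lower, with ERAP1 at 9.56 ± 1.16 TPM and ERAP2 at 0.492 ± 0.177 TPM, and the tapasin relative TAPBPL at 6.20 ± 0.402 TPM. These chaperones serve many secreted proteins besides class I.

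CAMA1 cells expressed mainly the constitutive catalytic proteasome subunits. PSMB8, PSMB9 and PSMB10 are the interferon-inducible subunits that replace PSMB5, PSMB6 and PSMB7 and change which peptides are made. PSMB8 had 8.97, 8.95 and 6.58 TPM, against 154, 158 and 152 TPM for PSMB5. PSMB9 had 6.93, 6.78 and 4.10 TPM, against 189, 194 and 175 TPM for PSMB6. Each inducible subunit lay below its counterpart in 3 of 3 libraries, and PSMB8 and PSMB9 were lowest in replicate 3. PSMB10 was nearer, at 35.0, 31.4 and 30.0 TPM against 180, 181 and 168 TPM for PSMB7. On average PSMB8 reached 5.27% of PSMB5, PSMB9 3.17% of PSMB6 and PSMB10 18.2% of PSMB7, with log2 ratios of −4.26 ± 0.24, −5.00 ± 0.35 and −2.46 ± 0.08 (SD, n = 3). PSMB8 and PSMB9 lie in the MHC beside TAP1 and have 7 alternate copies, and with the deposited length they stood at 1.051 and 0.7645 TPM. The genes of the proteasome activator PA28 were high, with PSME1 at 358 ± 21.7 TPM and PSME2 at 256 ± 2.74 TPM. PSME3, whose product forms a nuclear activator, stood at 164 ± 8.41 TPM.

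**Figure D3:**
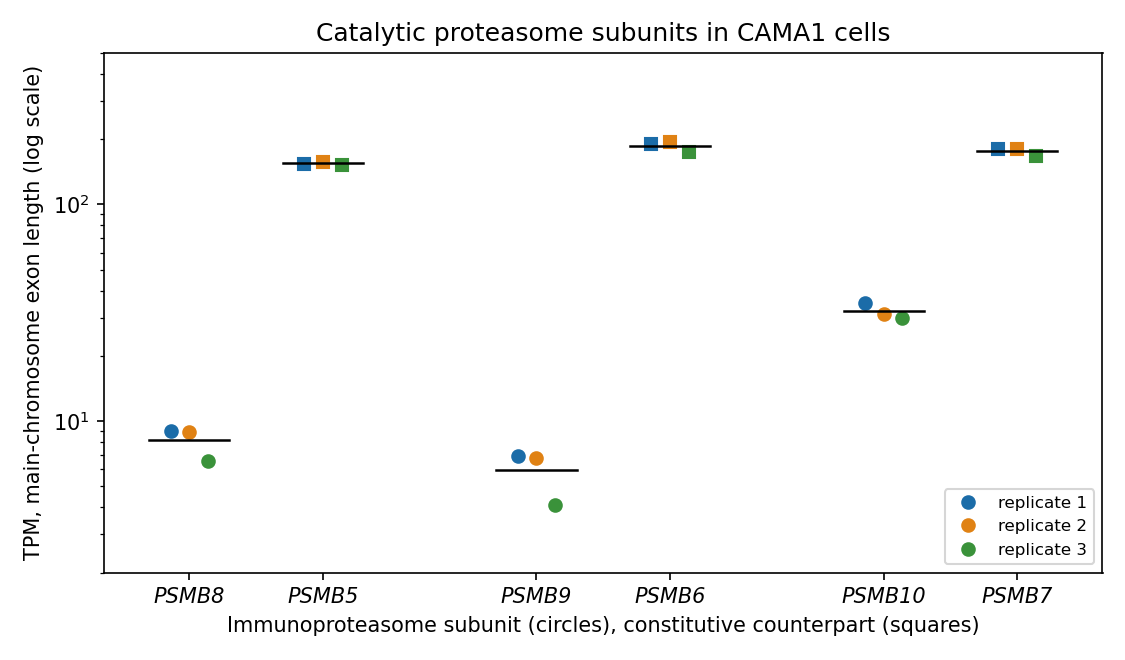
TPM (log scale) of the interferon-inducible catalytic proteasome subunits (circles) beside their constitutive counterparts (squares) in 3 CAMA1 libraries, with the mean as a line. PSMB8 and PSMB9 lie between 4.10 and 8.97 TPM, PSMB10 between 30.0 and 35.0 TPM, and the 3 constitutive subunits between 152 and 194 TPM.

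The RFX, CREB/ATF and NF-Y partners of NLRC5 at class I promoters were each present at a higher level than NLRC5. RFX5, the DNA-binding subunit of the RFX complex, stood at 160 ± 15.5 TPM, NFYA at 79.0 ± 2.04 TPM, RFXANK at 65.0 ± 1.33 TPM and NFYB at 45.02 ± 3.27 TPM. Of the 9 genes in this list 8 were detected, and the remaining one was CIITA, the class II transactivator, with 10, 8 and 6.50 counts. All 16 genes of interferon and NF-κB input were detected, with a median of 33.3 TPM. RELA stood at 161 ± 1.51 TPM, the kinase gene TYK2 at 96.5 ± 3.78 TPM and NFKB1 at 43.3 ± 1.90 TPM, while IRF1, a transcription factor that raises class I genes, had 15.4, 15.2 and 8.18 TPM. Receptor, kinase and transcription factor genes of this route were thus all represented by RNA.

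Class II presentation, which is normally a property of professional antigen-presenting cells, was low. Of its 12 genes 4 were detected, none reached a mean of 10 TPM over the libraries, and the median was 0.653 TPM. HLA-DMA stood at 9.56 ± 1.02 TPM, HLA-DOB at 6.61 ± 0.669 TPM and HLA-DRB1 at 1.24 ± 0.718 TPM, and CD74, the invariant chain, had 9.46, 11.8 and 1.67 TPM. HLA-DRB1 was not among the detected genes, with 24.5, 14.8 and 8 counts in replicates 1, 2 and 3. HLA-DPB1 and HLA-DOA had 0 counts in each library, which leaves room for up to 3 counts. Of the other class I-like heavy chains 9 of 14 were detected, led by the stress ligand MICA at 107 ± 3.84 TPM, the iron regulator HFE at 29.3 ± 1.96 TPM, MICB at 25.5 ± 4.91 TPM and AZGP1, which codes for a secreted class I-like protein, at 14.3 ± 0.893 TPM. With the deposited length MICA stood at 22.1 TPM and MICB at 3.29 TPM, against 30.2 TPM for HFE and 14.7 TPM for AZGP1. Their order thus depends on the length used. CD1D and ULBP3 had 0 counts.

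**Figure D4:**
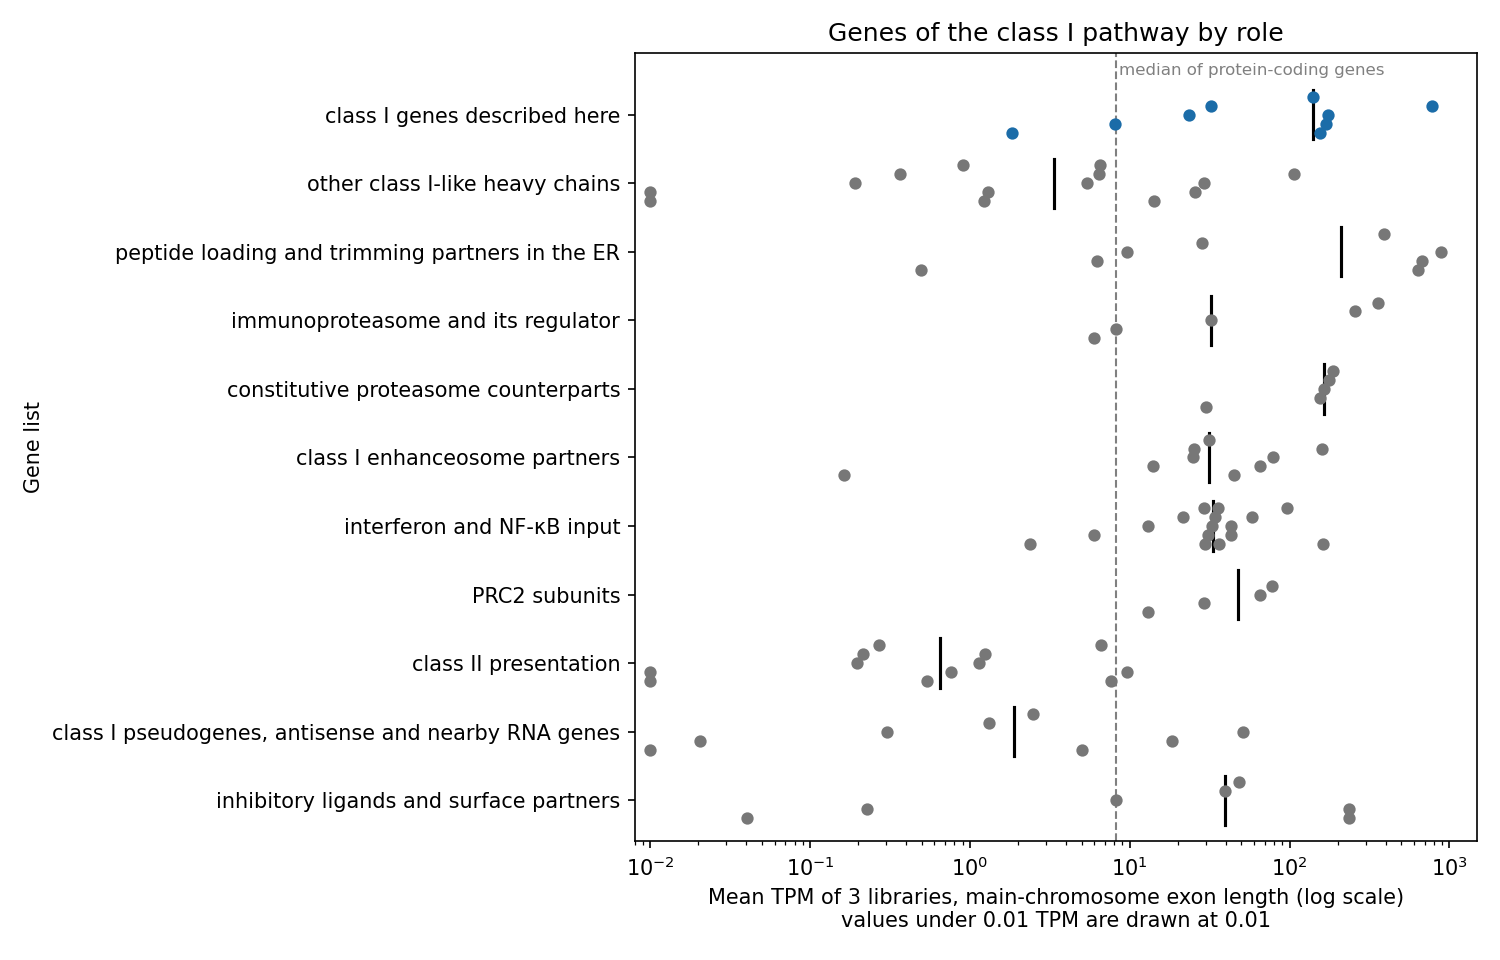
Mean TPM over 3 libraries (log scale, main-chromosome length) of the 9 class I genes (blue) and of 10 lists of related genes (grey), with the list median as a vertical bar, values under 0.01 TPM drawn at 0.01, and the median of protein-coding genes as a dashed line. Chaperones of peptide loading reach 881 TPM, the class II list has a median of 0.653 TPM, and the 9 class I genes span 1.84 to 776 TPM.

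The cells carried luminal epithelial markers, with 8 of 8 detected and a summed level of 8742 to 10721 TPM per library. Of 4 basal epithelial markers 3 were detected, with a summed level of 9.75 to 11.2 TPM. Leukocytes carry class I RNA too, and of 10 leukocyte markers 3 were detected, with a summed level of 10.71 to 14.01 TPM per library. The pan-leukocyte gene PTPRC had 3, 3 and 2 counts, CD3D 0 in each library and MS4A1 0, 1 and 0. Of 6 fibroblast markers 2 were detected, COL3A1 and COL1A1, whereas DCN, LUM and PDGFRA had 0 counts, and none of 3 endothelial markers was detected. The 3 detected leukocyte markers were LYZ at 6.29 ± 1.14 TPM, CD68 at 2.996 ± 0.458 TPM and CD8A at 1.499 ± 0.253 TPM. The pan-leukocyte, T cell receptor complex and B cell markers named above were therefore at or near 0, while these 3 were low but detected and COL3A1 stood at 159 ± 22.8 TPM.

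Between libraries, HLA-B and NLRC5 were the class I genes with the largest differences, and both were lowest in replicate 3. CPM is counts per library total after TMM scaling, and by this measure HLA-B had 99.4, 108 and 75.5 CPM in replicates 1, 2 and 3, a 1.43-fold range. NLRC5 had 5.64, 5.98 and 2.73 CPM, a 2.19-fold range. HLA-E had 176, 181 and 178 CPM and TAPBP 222, 227 and 218 CPM, ranges of 1.03-fold and 1.04-fold. HLA-E and TAPBP were thus the steadiest of the 9. Among genes within 1.5 times of its own mean CPM, 1.59% of 2577 had a log2 range as large as HLA-B (0.52) and 1.58% of 1138 as large as NLRC5 (1.11), against 88.3% of 1481 for HLA-E (0.04). For the rest of the 9 genes this share ran from 22.3% (HLA-C) to 80.8% (TAPBP).

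Of the 9 genes 6 varied beyond Poisson sampling (chi-square test on edgeR-scaled counts, adjusted over 14453 genes), but 41.6% of all tested genes did so. The adjusted p was 4.07e-37 for HLA-B, 2.41e-08 for NLRC5, 2.58e-06 for HLA-C, 0.000162 for B2M, 0.00616 for TAP2 and 0.0426 for TAP1. HLA-E (0.456), HLA-F (0.237) and TAPBP (0.132) did not pass the same edgeR-scaled test. Measured against edgeR's trended negative binomial dispersion, the spread usual for genes of like level, 0 of the 9 passed and 1.15% of all genes did. HLA-B had an adjusted p of 0.161 and NLRC5 of 0.316 in that chi-square test with the edgeR dispersion. Their unadjusted values of 0.00325 and 0.00901 were the 2 of the 9 that lay below 0.05. Without replicate 3 the Poisson test called 2 of the 9, HLA-B and HLA-C, and 8.04% of all genes. Differences thus passed against counting error for 6 genes and against the usual spread between these libraries for 0.

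In CPM, 8 of the 9 genes were lowest in replicate 3, the exception being HLA-E, and 39.8% of the tested genes were lowest there. By TPM, HLA-E was lowest in replicate 3 as well, at 169 TPM against 174 and 176 TPM in replicates 1 and 2. Among the genes of the 10 lists of related genes, 4 passed the chi-square test with the negative binomial dispersion, and each was lowest in replicate 3. Over all tested genes 1.15% passed it. The 4 were 2 of 16 genes tested for interferon and NF-κB input, 1 of 4 for class II presentation and 1 of 5 for ligands that restrain or engage immune cells. The other lists had 0. The lists were chosen with earlier results of these data known, so these counts are a description and not a test of the lists. How many of all passing genes were lowest in replicate 3 was not counted. CD74 had 6.06, 7.63 and 1.12 CPM, ICAM1 12.9, 12.8 and 4.996 CPM, IRF1 20.8, 20.9 and 11.5 CPM and IRF9 22.1, 24.6 and 13.9 CPM. The adjusted p in that chi-square test was 2.80e-05 for CD74, 0.00156 for ICAM1, 0.0235 for IRF1 and 0.0424 for IRF9. ICAM1, IRF9 and IRF2 were named after their values were seen. Of the 16 genes of interferon and NF-κB input, 9 were lowest in replicate 3 and 2 passed this test, while RELA had 156, 161 and 166 CPM and IRF2 23.8, 26.3 and 28.6 CPM, both lowest in replicate 1. Of the 8 luminal markers 1, EPCAM, was lowest in replicate 3, and 0 passed the same negative binomial test. The other luminal markers were all lowest in replicate 1 and highest in replicate 3. KRT19 had the widest range of them, with 1481, 1732 and 2221 CPM in replicates 1, 2 and 3. The Poisson test called 6 of the 8, against 41.6% of all tested genes. Replicate 3 also had the most counts, and the part of these differences in the class I values was not tested.

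**Figure D5:**
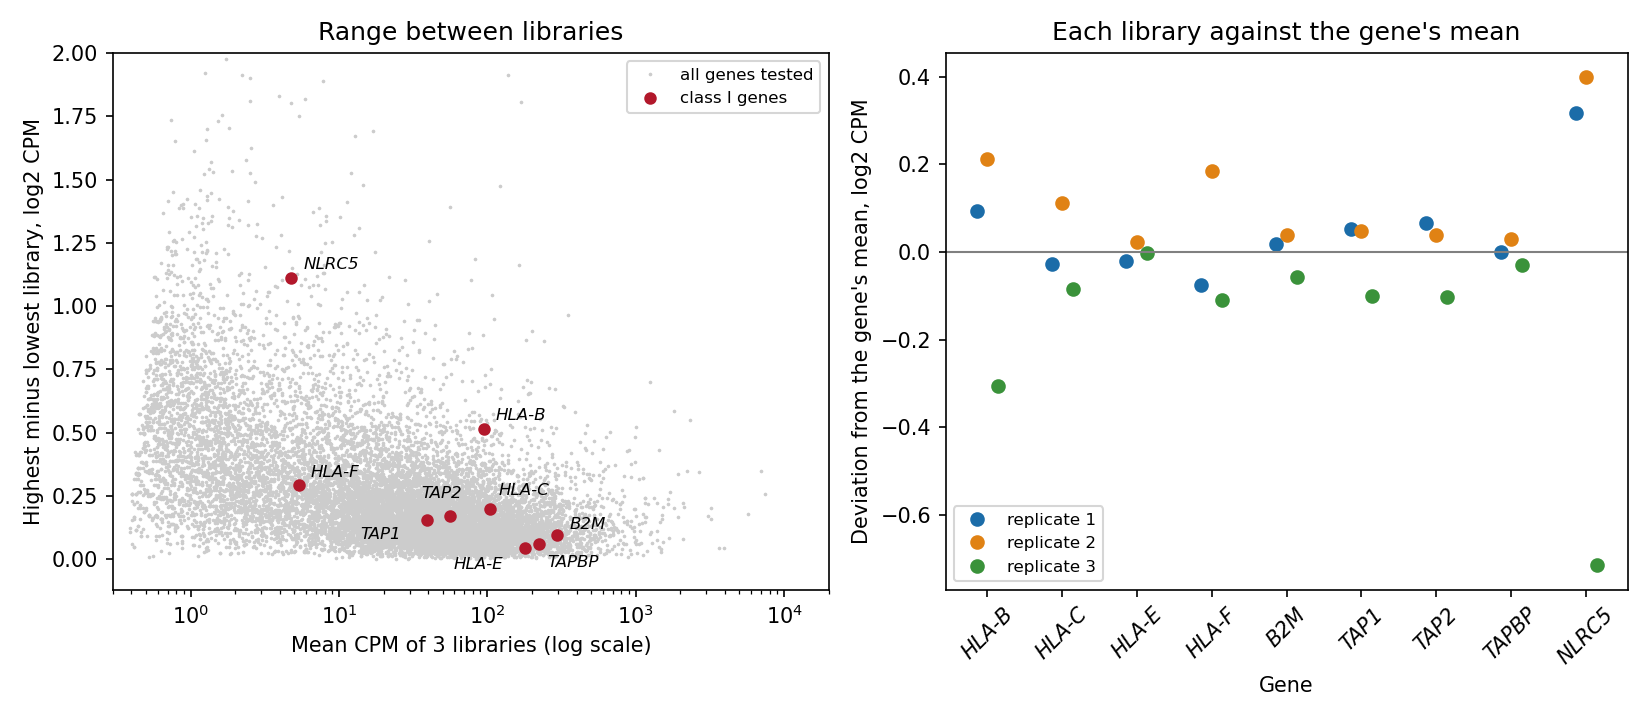
Left, highest minus lowest library (log2 CPM) against mean CPM (log scale) for 14453 tested genes (grey; 11 genes above 2 are not drawn) and the 9 class I genes (red); right, each library's deviation from the gene's own mean. NLRC5 (1.11) and HLA-B (0.52) have the largest ranges of the 9, and replicate 3 is lowest for 8 of the 9 genes.

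The mean deviation of the 9 genes was 0.05, 0.12 and −0.17 on the log2 CPM scale in replicates 1, 2 and 3. Among 9562 other protein-coding genes with at least 10 CPM, those nearest to it over the 3 libraries were USP13, LCP1 and CTNNBIP1, at root mean square distances of 0.00286, 0.00296 and 0.00561. As many as 555 genes lay within 0.05, so this pattern over 3 libraries of 1 group sets no gene apart.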

How the data were processed

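RNA was measured in 3 libraries of 1 group. Per the labels' protocols, poly-A RNA was prepared with a stranded Illumina mRNA kit and sequenced on a NextSeq instrument. The authors deposited expected counts per gene, which need not be whole; the submitters' processing notes name the build hg38 and the tools featureCounts, Subread and TopHat. How strand and reads with several matches were handled is not given in the sources used here, nor are versions. Besides counts, the deposited table gives exon positions and a summed length. The exon length on the main chromosome was the union of the exons on sequences other than alternate contigs and scaffolds. TPM was computed from counts and that length; ratios used 0.01 TPM as pseudocount and the exact sign-flip permutation test.

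For differences between libraries, counts were rounded and analysed in R 4.3.3 with TMM scaling, the low-count filter and an intercept-only design from edgeR 4.0.16. A chi-square test was computed against Poisson sampling, with edgeR's trended negative binomial dispersion as an alternative, Benjamini-Hochberg adjusted over all genes. Each was run on data simulated from its own model only, which does not show how it behaves on these libraries. DESeq2 1.42.0 gave the alternative size factors. Gene types and promoters came from RefSeq. The rule for the 9 genes uses names only, but these genes, the 10 lists of related genes, the markers, the motifs and the tests were chosen with earlier results of these data known. Named list genes were the 4 highest of each list, proteasome subunits with their counterparts, CIITA, IRF1 and listed genes at or below 3 counts; ERAP1, ERAP2, TAPBPL, ICAM1, IRF9, IRF2 and CD274 were added after their values were seen. Some values that this rule would name are not reported here.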

Additional observations from a re-analysis of the deposited data

How the results depend on the processing

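All 9 genes remained detected at 1 or 20 counts, at a mean of 1 TPM and without any replicate. The median level of 140 TPM was 25.1 TPM with the deposited length and 94.3 in CPM; the median share of protein-coding genes below a class I gene, 93.3%, was 65.8% with the deposited length and 90.0% against detected genes. Without 1 replicate these ranged from 138.5 to 143.4 TPM and from 93.18 to 93.39%. Log2 ratios that changed sign were HLA-B over HLA-C (0.063) and HLA-B over HLA-E (0.045) with the deposited length, TAP1 over TAP2 (−0.52) with no division by length, and HLA-C over HLA-E, which ranged from −0.069 to 0.017 without 1 replicate; the length itself makes the first 3. B2M over the summed heavy chains, 1.54, was 0.777 by counts alone and 5.11 with the deposited length, settings chosen after seeing the data, and 1.503 to 1.576 without 1 replicate. With the deposited length B2M over HLA-B was 3.93, TAPBP over TAP1 2.80 and TAPBP over NLRC5 4.01 (log2). The count of 6 genes beyond Poisson sampling was 0 with the negative binomial trend, which allows the usual spread between libraries, 5 with no low-count filter, and 2 to 6 without 1 replicate (2 without replicate 3). No paired analysis was possible because the series holds 1 group. Depth limits NLRC5 and HLA-F most, with 83 to 161 counts per library.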

Other observations

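Ligands that restrain or engage immune cells were uneven in CAMA1 cells. Of 7 genes 5 were detected, led by CD47, whose product signals against engulfment, at 236 ± 10.1 TPM and VTCN1, which codes for the inhibitory ligand B7-H4, at 235 ± 10.8 TPM. CD276 stood at 48.6 ± 4.74 TPM and the adhesion ligand CD58 at 39.6 ± 2.33 TPM. CD274, which codes for PD-L1, had 6, 12 and 9 counts, and PDCD1LG2 had 0, 3 and 0. All 4 genes of PRC2, a repressive chromatin complex, were detected, with EZH2 at 78.0 ± 7.59 TPM, SUZ12 at 65.7 ± 4.98 TPM, EZH1 at 29.4 ± 1.03 TPM and EED at 13.1 ± 1.10 TPM. Of the class I pseudogene, antisense and nearby RNA list, 8 of 11 genes were in the table and 5 were detected; HCG18 stood at 50.9 ± 4.50 TPM, HLA-L at 5.002 ± 0.279 TPM and HCP5 at 2.47 ± 0.824 TPM, while HCG4 had 0 counts.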
